A study of Mus musculus with 18 samples.

Results

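The immediate early genes described here are 10 genes chosen by name, as genes known to respond to tissue dissociation: Fos, Fosb, Jun, Junb, Atf3, Egr1, Egr2, Nr4a1, Ier2 and Dusp1. All 10 were found by their symbols among the 23063 genes of each table, and all 10 passed the filter on low values, so none was left out of any test. Expression was measured by RNA sequencing in 18 libraries of thymic epithelial cells (TEC), the stromal cells that support and select developing T cells. There were 6 groups of 3 libraries: cortical cells (cTEC) and 2 medullary populations (mTEClo and mTEChi), each from wild-type (WT) mice and from Aire-/- mice (KO). Aire is a transcriptional regulator of mature medullary cells that lets them express genes otherwise restricted to other tissues. The mice were 6 to 8 weeks old, and the strain label of every library, WT included, was B6.129S2-Airetm1.1Doi/J. Cells had been released from thymi by disruption and digestion and then sorted. Which surface protein set lo apart from hi is not named in the labels. Nor do the labels say whether the 3 libraries of a group came from separate mice, so the p-values measure the spread between these libraries only.

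Immediate early genes are switched on within minutes of a signal, without new protein synthesis, and their transcripts are short-lived. FOS and JUN proteins pair to form the transcription factor AP-1, the EGR proteins are zinc-finger transcription factors, and NR4A1 is an orphan nuclear receptor. Signals through ERK kinases reach many of these genes through serum response factor, which binds the CArG box, and signals through cyclic AMP and calcium reach them through CREB, which binds the cyclic AMP response element (CRE). They respond to growth factors, cytokines, antigen-receptor signals, stress and the handling of tissue, and some of their products, such as the phosphatase DUSP1, switch the signal off again.

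Levels are RPKM (reads per kilobase of gene model, scaled to the size of the library), a unit meant for comparison between genes. Such comparison has a limit here. The housekeeping genes Gapdh (2.27 to 3.97 RPKM) and Pgk1 (2.55 to 4.87 RPKM) stood far below Actb (494 to 825 RPKM) in every library. The cause was not tested, so ranks among all genes are approximate. Another housekeeping gene, Gusb, differed between the groups, with means from 15.3 RPKM (WT cTEC) to 59.7 RPKM (KO mTEClo). It was 44.5 RPKM in WT mTEClo and 57.3 RPKM in WT mTEChi. Values given below as centred on housekeeping genes use a mean that includes Gusb, and so carry part of its difference. Between 4.54 and 18.1 gigabases aligned to genes in each library. The aligned sequence on a single immediate early gene ran from 0.106 megabases, for Egr2, to 70.9 megabases, for Jun. Markers of the sorted cells followed the labels in part. The cortical gene Psmb11 lay between 10.1 and 21.8 RPKM in cTEC and between 0.569 and 2.12 RPKM in the medullary groups, and Aire was highest in mTEChi, but the cortical chemokine gene Ccl25 reached 210 to 514 RPKM in mTEChi. Aire RPKM was not lower in the libraries labelled KO: it was 1001 to 1126 RPKM in KO mTEChi and 658 to 693 RPKM in WT mTEChi. A value over the whole gene model does not show whether the targeted part is transcribed, so the genotype rests on the labels, and KO below means a library labelled KO. One library stood apart: KO cTEC replicate 1 had 95.6 RPKM of Aire and 21.3 RPKM of Cd80, another marker of mature medullary cells, against 27.0 to 35.9 and 6.15 to 8.81 RPKM in the other KO cTEC libraries. Its level of Dcn, a fibroblast marker, was 166 RPKM against 389 and 392 RPKM. Calls and counts in comparisons with KO cTEC are given with and without that library.

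Promoters are shown for the genes whose patterns the results turn on. Fos, Atf3 and Dusp1 followed one pattern across the populations, and Nr4a1 and Egr2 were the genes called between genotypes. RefSeq (GRCm38.p6) promoter windows matched 8 of the 10 symbols, all but Egr1 and Ier2. The 250 bases before the start are printed 5′ to 3′ on the gene's strand. Capitals mark any match, on either strand, to the CRE (TGACGTCA), its core TGACG, read as CGTCA on the other strand and held 2 times with overlap by a full CRE, the AP-1 site TGANTCA, the CArG box or the TATA element TATAAA.
Fos, chr12:85473640-85473889, plus strand: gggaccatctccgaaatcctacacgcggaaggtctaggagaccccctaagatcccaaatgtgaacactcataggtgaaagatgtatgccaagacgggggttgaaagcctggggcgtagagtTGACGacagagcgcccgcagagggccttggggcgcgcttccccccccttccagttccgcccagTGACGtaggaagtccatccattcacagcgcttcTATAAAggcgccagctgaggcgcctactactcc
Atf3, chr1:191183334-191183583, minus strand: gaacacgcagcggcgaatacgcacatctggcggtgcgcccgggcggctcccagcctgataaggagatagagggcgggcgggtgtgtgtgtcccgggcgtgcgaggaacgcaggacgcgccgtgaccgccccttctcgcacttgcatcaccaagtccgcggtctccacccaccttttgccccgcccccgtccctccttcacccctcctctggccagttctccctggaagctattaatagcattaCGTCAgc
Dusp1, chr17:26508473-26508722, minus strand: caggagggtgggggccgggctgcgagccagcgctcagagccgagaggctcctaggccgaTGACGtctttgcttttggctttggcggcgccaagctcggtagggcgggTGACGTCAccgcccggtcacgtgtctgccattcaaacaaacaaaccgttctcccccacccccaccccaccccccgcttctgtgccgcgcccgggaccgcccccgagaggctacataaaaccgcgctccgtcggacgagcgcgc
Nr4a1, chr15:101266596-101266845, plus strand: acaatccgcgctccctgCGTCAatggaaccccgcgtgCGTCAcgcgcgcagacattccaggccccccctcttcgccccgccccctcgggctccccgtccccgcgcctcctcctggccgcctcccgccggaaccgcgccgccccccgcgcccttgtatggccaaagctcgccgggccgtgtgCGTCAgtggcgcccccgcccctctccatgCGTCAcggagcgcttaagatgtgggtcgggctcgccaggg
Egr2, chr10:67537619-67537868, plus strand: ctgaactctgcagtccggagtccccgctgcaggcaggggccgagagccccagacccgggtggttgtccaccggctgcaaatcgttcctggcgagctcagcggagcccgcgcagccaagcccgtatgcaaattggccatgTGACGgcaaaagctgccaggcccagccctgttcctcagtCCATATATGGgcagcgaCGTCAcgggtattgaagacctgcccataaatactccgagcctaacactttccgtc
The CRE core was in the windows of 7 of the 8 genes, all but Jun, and in 17.8% of all 32851 windows of that length. Nr4a1 held 4 cores, the most of the 8 genes, starting 233, 213, 69 and 40 bases before the start. The full CRE was in Dusp1 alone, 143 bases before the start, and in 1.55% of all windows. The CArG box was in Egr2 alone, 72 bases before the start of the window shown, and in 1.47% of all windows. The TATA element was in Fos alone, 33 bases before the start, and in 12.4% of all windows. None of the 8 held the AP-1 site, which 6.75% of all windows held. These matches describe the letters in these windows and show no binding.

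Of the 10 genes, 8 ranked between 4th and 134th of all genes by mean RPKM in the cTEC and mTEClo groups, and Nr4a1 and Egr2 ranked far lower. Fos (chr12:85473901-85477270 in the mm10 coordinates of the files), which encodes a subunit of AP-1, ranked between 4th and 9th in those groups. In mTEChi it ranked 53rd (WT) and 92nd (KO). Its level was 2047, 1483 and 1962 RPKM in the WT cTEC libraries and 1171, 1572 and 2307 RPKM in KO cTEC. It was 1494, 1085 and 1426 RPKM in WT mTEClo and 1400, 1427 and 1624 RPKM in KO mTEClo. In mTEChi the 3 WT libraries had 385, 322 and 391 RPKM and the 3 KO libraries 291, 305 and 342 RPKM. Every mTEChi library thus lay far below every library of the other populations, while cTEC and mTEClo overlapped.

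Jun (chr4:95049036-95052222), the partner of FOS in AP-1, was close to Fos in its pattern and lower in level. It stood at 986 ± 226 RPKM in WT cTEC (SD, n = 3), 876 ± 129 RPKM in WT mTEClo and 211 ± 13.7 RPKM in WT mTEChi. In KO it was 823 ± 265, 902 ± 65.1 and 215 ± 12.7 RPKM in the same populations. Fosb (chr7:19302696-19310045), a FOS paralogue, reached 729 ± 187 RPKM in WT cTEC and 181 ± 19.4 RPKM in WT mTEChi. Junb (chr8:84976909-84978748), a JUN paralogue with weaker activating function, varied least: its group means lay between 302 RPKM (WT mTEChi) and 579 RPKM (KO mTEClo). Atf3 (chr1:191170297-191183333), a stress-induced factor of the same bZIP class, was at 355 ± 72.4, 281 ± 75.3 and 80.1 ± 14.2 RPKM in WT cTEC, mTEClo and mTEChi.

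Egr1, the most abundant EGR gene here, was at 1008 ± 192 RPKM in WT cTEC, 555 ± 86.3 RPKM in WT mTEClo and 226 ± 39.1 RPKM in WT mTEChi. Its relative Egr2 (chr10:67537869-67542188) was far lower and had another order. The WT cTEC libraries had 5.87, 5.05 and 7.17 RPKM of Egr2, the WT mTEClo libraries 21.6, 20.0 and 22.0 RPKM, and the WT mTEChi libraries 6.62, 5.35 and 6.10 RPKM. In KO the Egr2 values were 11.2, 7.20 and 7.71 RPKM in cTEC, 25.1, 19.8 and 24.1 RPKM in mTEClo, and 4.13, 5.24 and 3.85 RPKM in mTEChi. In each genotype every mTEClo library lay above every cTEC and mTEChi library for Egr2.

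Nr4a1 (Nur77, chr15:101266846-101274794), known in lymphocytes as a readout of antigen-receptor signalling, was the other gene of low level. Its WT libraries had 29.0, 22.6 and 39.3 RPKM in cTEC, 16.4, 12.5 and 17.9 RPKM in mTEClo, and 9.91, 8.19 and 11.9 RPKM in mTEChi. Its KO libraries had 33.3, 29.1 and 42.5 RPKM in cTEC, 28.5, 20.2 and 32.9 RPKM in mTEClo, and 6.75, 6.11 and 5.48 RPKM in mTEChi. The genotypes overlapped in cTEC, whereas in mTEClo all KO libraries were above all WT libraries and in mTEChi all were below. Ier2 (chr8:84661331-84662852), which encodes a small nuclear protein, was highest in mTEClo, at 275 ± 29.9 RPKM in WT and 350 ± 29.0 RPKM in KO, against 146 ± 3.96 and 119 ± 6.51 RPKM in mTEChi. Dusp1 (chr17:26505591-26508472), which encodes a phosphatase that inactivates MAP kinases, was at 248 ± 48.2 RPKM in WT cTEC, 206 ± 36.6 RPKM in WT mTEClo and 104 ± 10.4 RPKM in WT mTEChi.

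**Figure D1:**
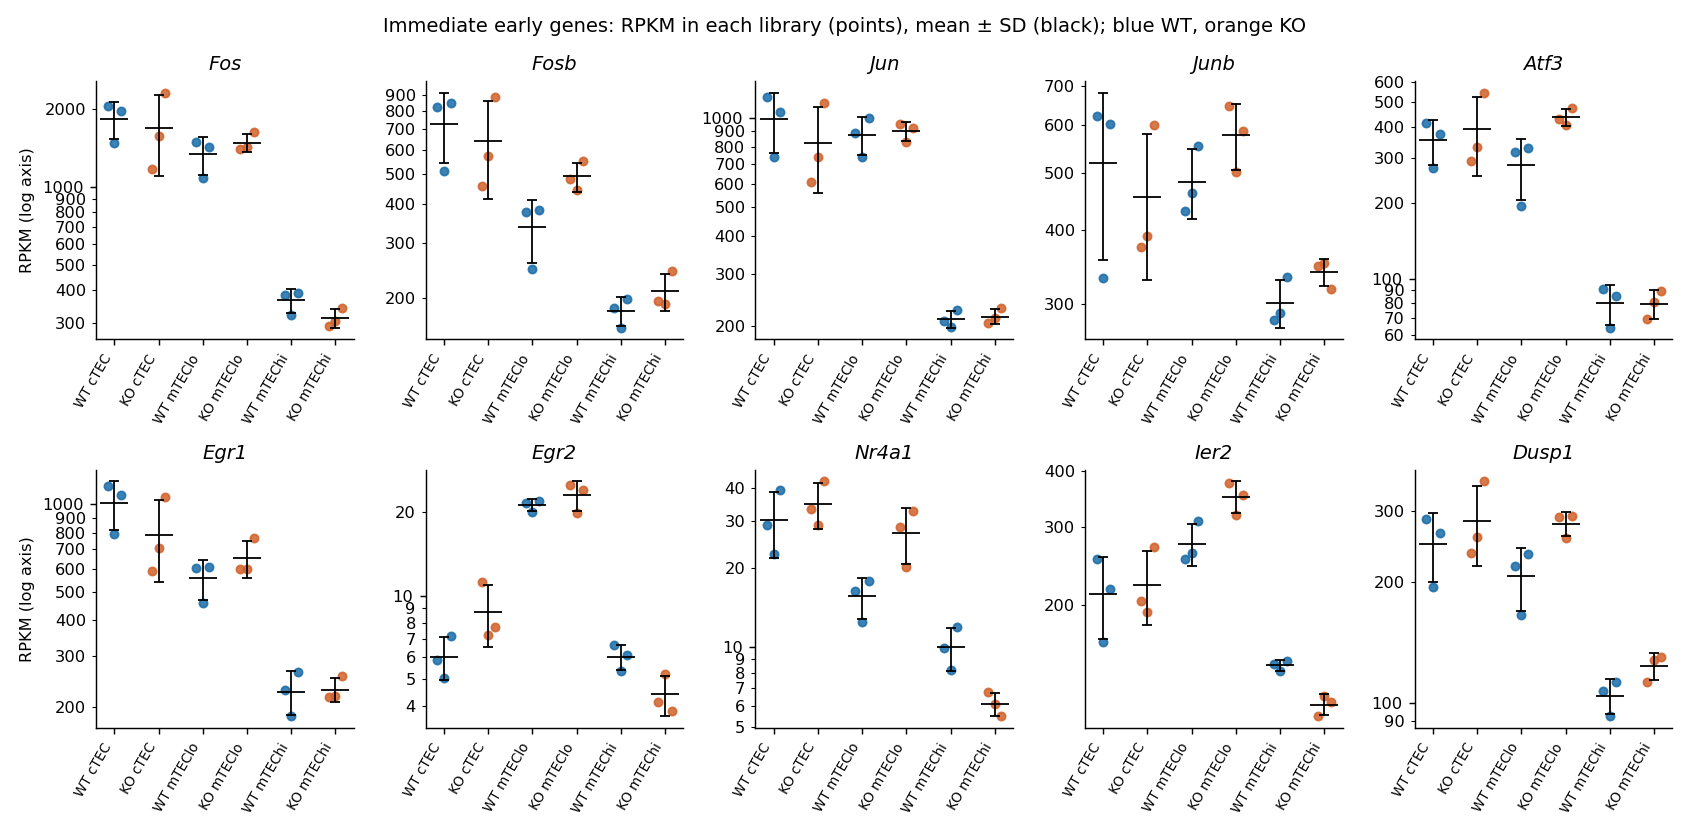
RPKM of the 10 immediate early genes (one panel each, log axis) in the 3 libraries of each group, WT in blue and KO in orange, with the mean and SD in black. For 8 of the genes both mTEChi groups lie below all other libraries; Junb overlaps between WT mTEChi and WT cTEC, and Egr2 is high in mTEClo only.

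In mTEChi most of the immediate early genes were lower than in the other populations. Of the 10, 10 were called lower in WT mTEChi than in WT mTEClo and 9 were called lower than in WT cTEC, where the call is an adjusted p under 0.05 from limma over all 19451 tested genes. The background was 31.1% of all tested genes called lower in the first comparison and 31.8% in the second. Against mTEClo, the log2 fold change (on log2(RPKM + 0.1)) of Jun was -2.04 ± 0.20 (SE, adjusted p = 1.8e-07), a 4.12-fold lower level, and that of Fos was -1.86 ± 0.22 (adjusted p = 1.3e-06). Egr2 and Atf3 were lower by similar amounts, at -1.80 and -1.79. The smallest differences were those of Nr4a1 (-0.63 ± 0.22, adjusted p = 0.016) and Junb (-0.67 ± 0.22, adjusted p = 0.012). All 10 genes had every WT mTEChi library below every WT mTEClo library. The share of all tested genes that separated like this was not counted, and 41.6% of them were called higher in this comparison. Junb lost its call after quantile normalization (-0.31, adjusted p = 0.16) and without WT mTEClo replicate 3 (-0.56, adjusted p = 0.053). Nr4a1 lost its call without WT mTEClo replicate 3 (-0.53, adjusted p = 0.067) or WT mTEChi replicate 2 (-0.50, adjusted p = 0.078).

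Against WT cTEC, Fos was 4.97-fold lower in WT mTEChi (log2 fold change -2.31 ± 0.22, limma adjusted p = 6.9e-08). Jun, Egr1 and Atf3 were lower by 4.59-, 4.44- and 4.41-fold, Fosb by 3.94-fold and Nr4a1 by 2.96-fold. The changes of Dusp1 (2.36-fold), Junb (1.66-fold) and Ier2 (1.43-fold) were smaller, and Junb was the only called gene whose libraries overlapped between these groups. Egr2 was not called (0.01, 95% interval -0.34 to 0.36). The median log2 fold change of the 10 genes was -1.77, and that of all tested genes 0.25. The median of all tested genes moved to -0.15 after quantile normalization and to 0.10 when the libraries were centred on housekeeping genes. A shift of that median does not show how far the 10 genes themselves moved. Their calls in this comparison were the same under these settings, the other alternatives and with each library left out.

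The same pattern held in the KO libraries. All 10 genes were called lower in KO mTEChi than in KO mTEClo, where 43.7% of all tested genes were called lower, and 9 were called lower in KO mTEChi than in KO cTEC, where 41.2% were. Against KO mTEClo, the lowest log2 fold changes were those of Atf3 (-2.46 ± 0.24), Egr2 (-2.37 ± 0.17), Fos (-2.25 ± 0.22) and Nr4a1 (-2.11 ± 0.22). Junb had the smallest, at -0.76 ± 0.22 (limma adjusted p = 0.0056), and lost its call when libraries were centred on housekeeping genes (-0.46, adjusted p = 0.067). Against KO cTEC, the one gene not called was Junb (-0.39, 95% interval -0.86 to 0.07), though its libraries did not overlap, and Egr2 was called at -0.95 ± 0.17 (adjusted p = 8.6e-05). Without KO cTEC replicate 1, the same 9 genes stayed called and Junb stood at -0.51 (adjusted p = 0.068).

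**Figure D2:**
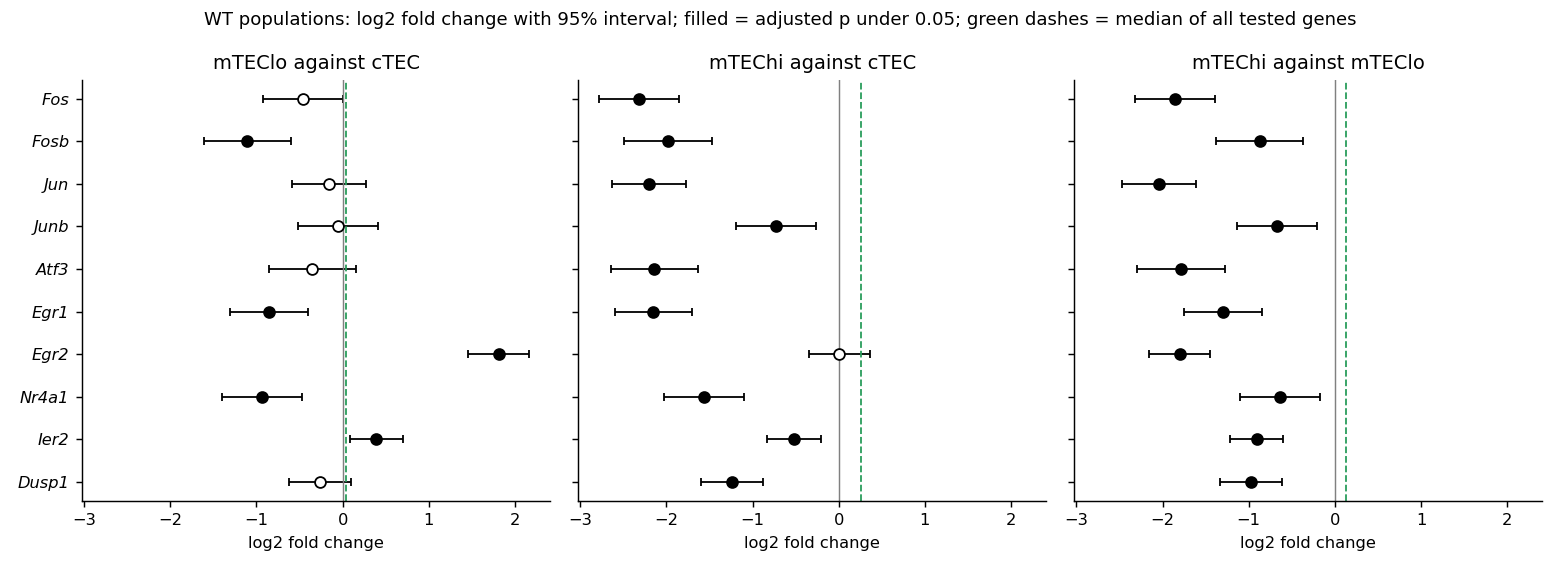
Log2 fold changes of the 10 genes (rows) between the WT populations, in 3 panels, with 95% intervals from limma; filled points are called at an adjusted p under 0.05 and green dashes mark the median of all tested genes. In both mTEChi panels all called genes lie left of 0, and Egr2 lies near 0 against cTEC and at 1.81 in the mTEClo panel.

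The summed level of the 10 genes put the same difference on one scale. The 10 genes took 0.479% to 0.608% of all RPKM in the 6 mTEChi libraries, 1.16% to 1.86% in the 6 mTEClo libraries and 1.38% to 2.33% in the 6 cTEC libraries. In bulk samples such as these, fewer cells with a transcript and less transcript per cell cannot be told apart. Markers of other cells moved between the populations too. The 6 dendritic cell and macrophage markers summed to 338 to 386 RPKM in mTEChi and to 24.2 to 152 RPKM elsewhere, most of it Lyz2. The 6 fibroblast markers summed to 184 to 453 RPKM in cTEC, most of it Dcn, and to 35.3 to 105 RPKM in the medullary groups. The 7 thymocyte markers summed to 12.8 to 75.9 RPKM, the 5 endothelial markers to 3.01 to 30.5 RPKM and the 3 B cell markers to 0.156 to 6.67 RPKM in all libraries. No marker of these lists was at 0 in all libraries of a group. Their part in the differences between populations was not tested.

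Between WT mTEClo and WT cTEC the 10 genes did not move together. Egr2 and Ier2 were called higher in mTEClo, against a background of 24.6% of all tested genes. Fosb, Egr1 and Nr4a1 were called lower, against a background of 18.2%. Egr2 was 3.51-fold higher (log2 fold change 1.81 ± 0.17, limma adjusted p = 3.7e-07). Fosb was 2.15-fold lower (-1.10 ± 0.24, adjusted p = 0.0014), Nr4a1 1.91-fold lower (-0.93 ± 0.22, adjusted p = 0.0025) and Egr1 1.81-fold lower (-0.85 ± 0.21, adjusted p = 0.0039), each without overlap of libraries. Ier2 was 1.31-fold higher (0.39 ± 0.15, adjusted p = 0.041), and its call was lost with no filter on low values (adjusted p = 0.06), after either rescaling (0.29 and 0.26), and without any one of WT cTEC replicates 2 or 3 or WT mTEClo replicates 2 or 3 (0.22 to 0.42). The intervals of the other 5 genes included 0, with Fos at -0.45 (95% interval -0.92 to 0.01) and Jun at -0.15 (-0.58 to 0.28).

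In KO, 2 genes were called between mTEClo and cTEC, both higher in mTEClo, against a background of 19.3%. These were again Egr2 (1.41 ± 0.17, limma adjusted p = 1e-05) and Ier2 (0.67 ± 0.15, adjusted p = 0.002). Both calls remained without KO cTEC replicate 1, at 1.61 and 0.62. Fosb (-0.33), Egr1 (-0.23) and Nr4a1 (-0.37), the genes called lower in WT, were not called in KO. The difference between these WT and KO contrasts is the same quantity as the difference between the genotype effects in mTEClo and cTEC, for which none of the 10 genes was called.

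Few of the 10 genes were called between KO and WT, and a gene that was not called is not shown to be unchanged. In cTEC only Egr2 was called, higher in KO, against a background of 13.3% of all tested genes called higher. Its log2 fold change was 0.51 ± 0.17 (limma adjusted p = 0.04), a 1.42-fold higher level with no overlap between the 3 KO and the 3 WT libraries. Without KO cTEC replicate 1, the library that stood apart, it was 0.32 (adjusted p = 0.2), and it was also not called without WT cTEC replicate 1 or 2 (0.50 and 0.39), with no filter on low values, or after either rescaling (0.44 and 0.41). The other 9 genes had log2 fold changes between -0.38 (Egr1, 95% interval -0.83 to 0.07) and 0.23 (Nr4a1, -0.24 to 0.69) and overlapping libraries. Without KO cTEC replicate 1 the value of Egr1 was -0.20, and without KO cTEC replicate 3 it was -0.62 (adjusted p = 0.03), with Jun at -0.53 (adjusted p = 0.042). Markers of other cells moved with the genotype in cTEC. Of the 9 medullary markers found, 6 were called higher in KO cTEC and none lower (0 at an unadjusted p under 0.05 in limma), among them Aire (11.2-fold), the claudin gene Cldn4 (5.86-fold) and Fezf2 (3.56-fold), a transcription factor of medullary cells. Cldn4 had 93.7, 45.0 and 54.8 RPKM in KO cTEC, with replicate 1 the highest, and 8.40 to 12.4 RPKM in WT cTEC. The 9 summed to 1443 to 1526 RPKM in KO cTEC and to 1062 to 1285 RPKM in WT cTEC. The dendritic cell and macrophage markers summed to 107 to 152 RPKM against 24.2 to 61.9 RPKM. The endothelial markers summed to 7.16 to 13.5 RPKM against 3.01 to 5.42 RPKM. Of these only Tek was called higher (6.96-fold), and Kdr was lower without overlap but not called. Of the fibroblast markers, Col1a1 (3.36-fold), Col1a2 (2.11-fold) and Col3a1 (1.97-fold) were called lower and Pdgfrb (1.89-fold) higher. No thymocyte marker was called, but Cd3e, Rag1, Lck and Dntt were lower in KO without overlap, while the other thymocyte markers overlapped. The part of all these markers in the value of Egr2, a gene that was itself highest in mTEClo, was not tested.

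In mTEClo the 10 log2 fold changes between KO and WT were all above 0, from 0.05 (Jun) to 0.78 (Nr4a1), with a median of 0.31 against -0.04 for all tested genes. Only Nr4a1 was called, 1.72-fold higher in KO (0.78 ± 0.22, limma adjusted p = 0.023), against a background of 7.93% of all tested genes called higher. Its call was lost without WT mTEClo replicate 1 or 2 or without KO mTEClo replicate 1 or 3, with values from 0.63 to 0.83. In 4 further genes every KO library exceeded every WT library but the test was not passed. These were Atf3 (0.67 ± 0.24, adjusted p = 0.067), Fosb (0.57 ± 0.24, adjusted p = 0.12), Dusp1 (0.45 ± 0.17, adjusted p = 0.086) and Ier2 (0.35 ± 0.15, adjusted p = 0.12). How many of all tested genes separated in this way was not counted. Fosb had 482, 445 and 551 RPKM in KO mTEClo and 378, 248 and 385 RPKM in WT mTEClo. Atf3 had 429, 407 and 475 RPKM against 319, 194 and 330 RPKM. WT mTEClo replicate 2, the shallowest library at 4.54 gigabases, was the lowest of the WT libraries in both genes. The dendritic cell and macrophage markers summed to 69.6 to 139 RPKM in KO mTEClo and to 26.8 to 34.2 RPKM in WT mTEClo. The 9 medullary markers summed to 2268 to 2420 RPKM in KO mTEClo and to 2596 to 3166 RPKM in WT mTEClo, most of it Krt5 and Krt14. Krt5 was the only one called lower in KO (1.35-fold, limma adjusted p = 0.049). Cldn3 (2.03-fold) and Cldn4 (1.91-fold) were called higher, and the rest were not called. The part of these markers in the differences was not tested. After quantile normalization 4 of the 10 genes were called higher (Nr4a1, Fos, Atf3 and Ier2), as were 1615 of all 19451 tested genes. With the replicate block Fosb, Atf3, Nr4a1 and Dusp1 were called higher, as were 1548 of all tested genes. The deviations of libraries of the same number had correlations of -0.11, 0.0039 and -0.036 in these groups. Among the 10 genes, though, replicate 2 was the lowest for 8 in WT mTEClo and 9 in KO mTEClo. Replicate 3 was the highest for 9 and 6.

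In mTEChi 2 of the 10 genes were called, both lower in KO: Nr4a1 (-0.69 ± 0.22, limma adjusted p = 0.012) and Egr2 (-0.45 ± 0.17, adjusted p = 0.027). The background was 52.8% of all tested genes called lower, and the median of all tested genes was itself -0.39. Relative to that median Nr4a1 stood at -0.30 and Egr2 at -0.06. After quantile normalization the median of all genes was 0.08, and the values were -0.40 (adjusted p = 0.15) for Nr4a1 and -0.03 (adjusted p = 0.89) for Egr2. Under that setting Fos (-0.54, limma adjusted p = 0.042) and Ier2 (-0.36, adjusted p = 0.024) were called lower, as were 4808 of all tested genes. Centred on housekeeping genes, neither Nr4a1 nor Egr2 was called (-0.52 and -0.27) and Dusp1 was called higher (0.42, adjusted p = 0.048). The call of Nr4a1 was lost without WT mTEChi replicate 3 (-0.56, adjusted p = 0.061), and that of Egr2 without any one of WT or KO mTEChi replicates 1 or 3 (-0.44 to -0.36). The other 8 genes ranged from -0.29 (Ier2, 95% interval -0.60 to 0.02) to 0.25 (Dusp1, -0.11 to 0.61). The Ier2 libraries did not overlap, at 112, 125 and 121 RPKM in KO and 147, 142 and 149 RPKM in WT.

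Many but not all markers of other cells were also called lower in KO mTEChi, as were 52.8% of all tested genes. Called lower were 5 of 6 fibroblast markers, 4 of 6 dendritic cell and macrophage markers, 3 of 7 thymocyte markers, 2 of 3 B cell markers and 3 of 5 endothelial markers, while Dcn and Cd68 were called higher. The thymocyte markers summed to 12.8 to 24.7 RPKM in KO mTEChi and to 33.4 to 55.7 RPKM in WT mTEChi, and the B cell markers to 2.93 to 3.61 RPKM against 5.36 to 6.67 RPKM. The macrophage gene Emr1 lay between 0.123 and 0.256 RPKM in KO and between 4.76 and 5.16 RPKM in WT, and the collagen gene Col1a1 between 0.115 and 0.151 RPKM against 11.6 and 14.6 RPKM. The sums of the dendritic cell and macrophage markers, mostly Lyz2, overlapped, at 355 to 386 RPKM and 338 to 367 RPKM. The part of these markers in the values of Nr4a1 and Egr2 was not tested.

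**Figure D3:**
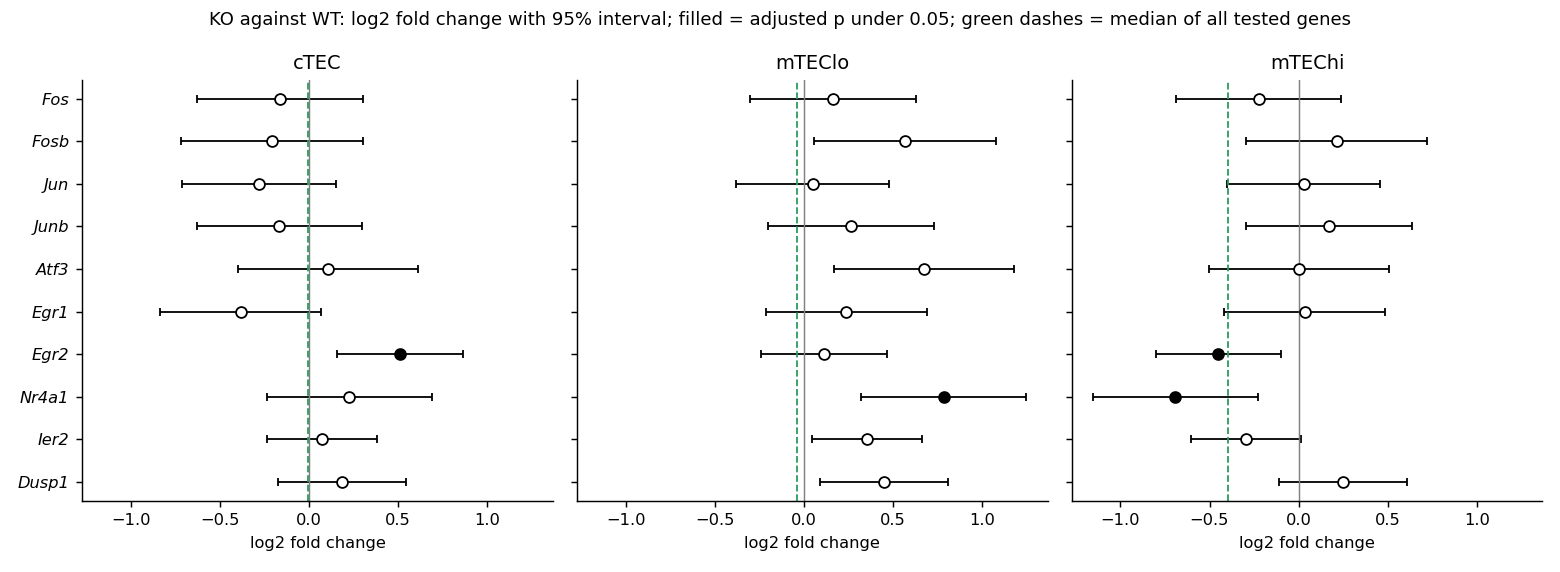
Log2 fold changes of the 10 genes (rows) between KO and WT in cTEC, mTEClo and mTEChi, with 95% intervals from limma; filled points are called at an adjusted p under 0.05 and green dashes mark the median of all tested genes. In mTEClo all 10 points lie right of 0 and Nr4a1 is filled, while in mTEChi Nr4a1 and Egr2 are filled left of 0 and the dashes stand at -0.39.

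The genotype effects were then compared between populations. For Nr4a1 the effect in mTEChi minus that in mTEClo was -1.48 ± 0.31 on the log2 scale (limma adjusted p = 0.00097), and for Ier2 it was -0.65 ± 0.21 (adjusted p = 0.017). These were the 2 genes of the 10 called lower, a smaller share than the background of 40.9%, and the median of all tested genes was -0.39. The call of Nr4a1 remained under every alternative that was run, and that of Ier2 was lost when centred on housekeeping genes (-0.32, adjusted p = 0.23). Fos, not called as reported, was called lower after quantile normalization (-1.46, limma adjusted p = 0.0013), as were 3550 of all tested genes. The effect in mTEChi minus that in cTEC was called lower for Egr2 (-0.96 ± 0.23, adjusted p = 0.0029) and Nr4a1 (-0.92 ± 0.31, adjusted p = 0.021), again 2 of 10 against a background of 44.8%. Without KO cTEC replicate 1 these were -0.77 (adjusted p = 0.0051) and -0.94 (adjusted p = 0.027). After quantile normalization neither was called (-0.47 and -0.63). Under that setting Fos (-0.83, limma adjusted p = 0.033) and Ier2 (-0.46, adjusted p = 0.047) were called lower, as were 3951 of all tested genes. The call of Nr4a1 was also lost when centred on housekeeping genes (-0.64) and without KO cTEC replicate 3, KO mTEChi replicate 3, WT cTEC replicate 2 or WT mTEChi replicate 3 (-0.84 to -0.72). The markers of other cells given for each genotype comparison bear on these differences too, and their part was not tested. For the effect in mTEClo minus that in cTEC, none of the 10 genes was called in limma, against 4.24% of all tested genes called in either direction. In limma 1 of the 10, Fosb (0.78), had an unadjusted p under 0.05 there, and its adjusted p was 0.25.

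Within each group the libraries differed from each other in many of the 10 genes at once. WT cTEC replicate 2 was the lowest of its 3 libraries for 10 of the 10 genes. WT mTEChi replicate 2 and KO mTEClo replicate 2 were lowest for 9, and WT mTEClo replicate 2 for 8. KO cTEC replicate 3 was the highest of its group for 9 genes, all but Egr2, and KO cTEC replicate 1 the lowest for 7. KO cTEC had the widest spread, with a coefficient of variation of 34.2% for Fos against 8.39% in KO mTEChi. After subtraction of group means, each gene was correlated over the 18 libraries with the mean of the other 9. Pearson's r was 0.97 for Dusp1, between 0.77 and 0.93 for Fos, Fosb, Jun, Junb, Egr1, Atf3, Ier2 and Nr4a1, and 0.14 for Egr2. On the levels themselves, group differences included, r was between 0.86 and 0.99 for those 9 genes and 0.57 for Egr2. The points share a library and its scaling, so these values are descriptions.

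**Figure D4:**
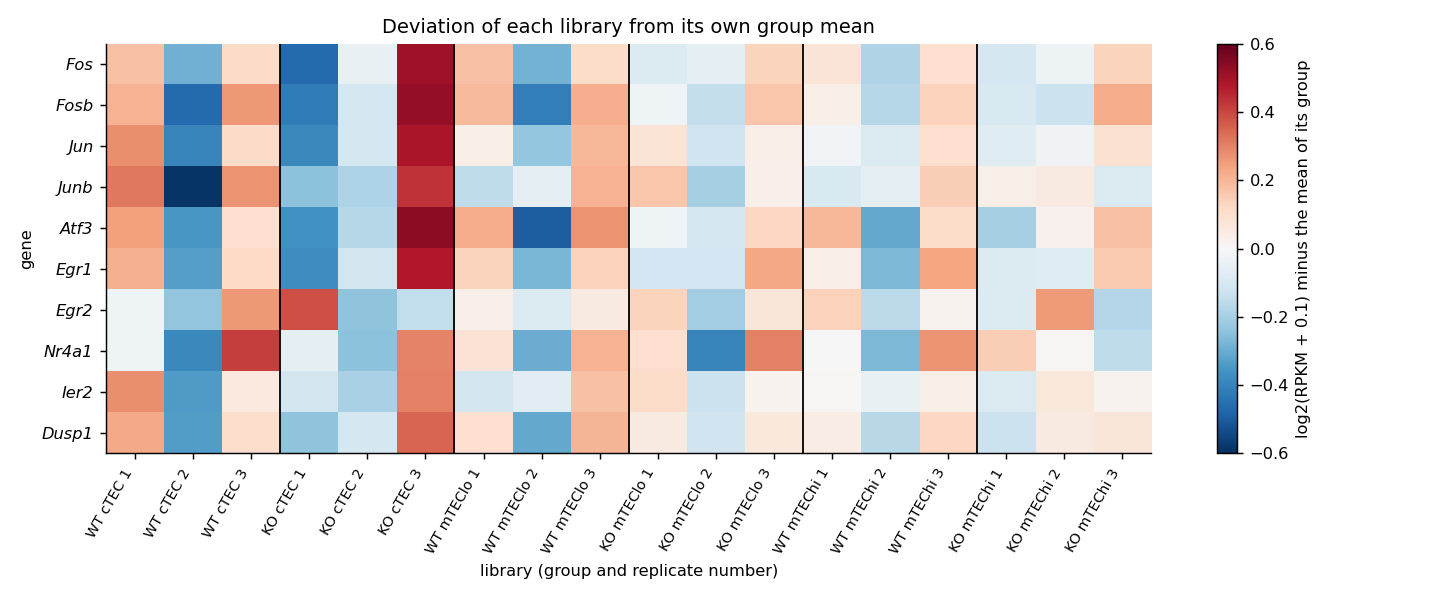
Deviation of each library (columns, by group and replicate number) from the mean of its group on the log2(RPKM + 0.1) scale, for the 10 genes (rows); red is above and blue below the group mean. The column of WT cTEC 2 is blue in all 10 rows and that of KO cTEC 3 red in 9, and the row of Egr2 departs from the others.

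Other genes followed the same levels. Among 13793 genes with a mean of at least 1 RPKM, the 5 whose log2 levels were most alike to the mean standardised level of the 10 over the 18 libraries were Fkbp1b (r = 0.97), Socs3 (0.97), 0610031J06Rik (0.97), Rusc2 (0.96) and Sf1 (0.96). Socs3, a feedback inhibitor of cytokine signalling, was at 338 ± 78.1 RPKM in WT cTEC, 294 ± 61.2 RPKM in WT mTEClo and 51.3 ± 5.81 RPKM in WT mTEChi. After subtraction of group means the 5 most alike were Zfp36 (r = 0.95), Ppfia1 (0.94), Nfkbiz (0.94), Socs3 (0.94) and Pomt1 (0.92). Zfp36 encodes a protein that destabilises short-lived mRNAs, and Nfkbiz an inducible regulator of NF-kB targets. Socs3 was in both lists.

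Of 13 other genes of the AP-1, EGR and NR4A families and their NAB corepressors, 5 were called higher and 3 lower in WT mTEChi than in WT mTEClo, with a median of -0.08. Of all tested genes, 41.6% were called higher and 31.1% lower there. The count of higher genes was 3 after quantile normalization and without WT mTEClo replicate 2. Egr4 (2.23), Nr4a3 (2.04) and Batf (1.34), a bZIP factor of lymphoid and antigen-presenting cells, led the higher genes. The lower genes were Nab2 (-1.25), Egr3 (-1.01) and Nab1 (-0.46). The call of Egr4 was lost after quantile normalization (0.56, adjusted p = 0.26), and that of Egr3 without WT mTEChi replicate 1 (-0.83) or WT mTEClo replicate 2 (-0.91). Against WT cTEC, 8 were called higher, led by Fosl1 and Egr3 (each 2.61), and 3 lower, led by Nab2 (-1.27) and Nr4a2 (-1.13), where 46.6% of all tested genes were called higher and 31.8% lower. After quantile normalization 5 were higher.

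Egr3, the paralogue of Egr2, was also high in mTEClo. It had 0.451, 1.83 and 0.946 RPKM in WT cTEC, 11.9, 14.5 and 11.7 RPKM in WT mTEClo and 4.84, 6.59 and 7.55 RPKM in WT mTEChi. The KO libraries had 12.2, 5.40 and 5.26 RPKM in cTEC, 29.1, 25.2 and 27.0 RPKM in mTEClo, and 5.59, 4.82 and 5.91 RPKM in mTEChi. Egr3 was called higher in mTEClo than in cTEC in WT (3.62 ± 0.36, limma adjusted p = 8.1e-07) and higher in KO than in WT in cTEC (2.78 ± 0.36, adjusted p = 6.3e-05). The value in cTEC was 2.39 (adjusted p = 0.00023) without KO cTEC replicate 1. Medullary markers such as Aire and Cldn4 were higher in the same KO cTEC libraries, and their part in the change of Egr3 was not tested. In mTEClo its KO level was also called higher (1.10 ± 0.36, adjusted p = 0.049), a call lost without any one library of the 6, with no filter, a pseudocount of 0.01 or centring. KO cTEC replicate 1 had the highest KO cTEC value, as it did for Egr2. Nr4a2, the paralogue of Nr4a1, was called lower in KO mTEChi than in WT mTEChi (-1.49 ± 0.21, adjusted p = 1.6e-05), at 0.612, 0.726 and 0.518 RPKM against 1.97, 1.61 and 2.19 RPKM, and lost the call after quantile normalization (-0.35, adjusted p = 0.2).

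**Figure D5:**
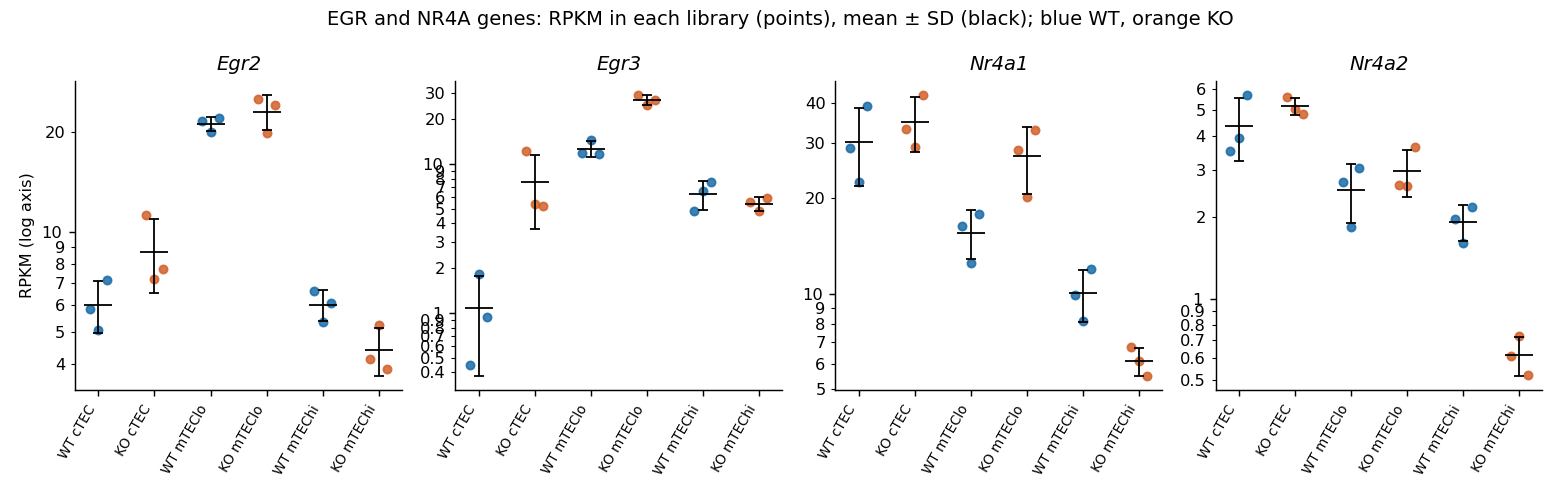
RPKM (log axis) of Egr2, Egr3, Nr4a1 and Nr4a2 in the 3 libraries of each group, WT in blue and KO in orange, with the mean and SD in black. Egr2 and Egr3 are highest in the mTEClo groups, and Nr4a1 and Nr4a2 are lowest in KO mTEChi.

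Of 26 other immediate early response genes, 16 were called lower in WT mTEChi than in WT mTEClo and 5 higher, and against WT cTEC 16 were called lower and 7 higher. Of all tested genes, 31.1% and 31.8% were called lower and 41.6% and 46.6% higher in these comparisons. Cyr61, a secreted matrix-associated growth regulator, was lower by the most (-3.82 against mTEClo and -3.62 against cTEC). Zfp36l1, a relative of Zfp36, was lower at -3.09 and -3.34, and Id1, an inhibitor of bHLH factors, at -3.81 and -3.12. Other genes of the list were higher in mTEChi in both comparisons, namely Arc (1.96 and 2.81) and the stress-response gene Gadd45b (1.69 and 2.55). In KO against WT cTEC, 6 of the 26 were called higher and none lower, against 13.3% and 6.76% of all tested genes. Without KO cTEC replicate 1 only 1 was called higher, with Dusp5 (0.54, limma adjusted p = 0.2), Gadd45b (0.47, adjusted p = 0.14) and Csrnp1 (0.44, adjusted p = 0.14) among those lost. The count was also 1 without WT cTEC replicate 1, 0 without WT cTEC replicate 2 and 2 with no filter. Centred on housekeeping genes, 0 were higher and 4 lower, and without KO cTEC replicate 3, 4 were higher and 5 lower. In mTEClo 4 were called higher and none lower, against 7.93% and 8.04% of all tested genes, among them the antiproliferative gene Btg2 (0.69, limma adjusted p = 0.00019). Without KO mTEClo replicate 1 or 3 or WT mTEClo replicate 1 or 3, 2 were called higher, and when centred 2 were higher and 4 lower. At an unadjusted p under 0.05 in limma, 4 and 3 of the 26 were lower in cTEC and mTEClo. In mTEChi 5 were called higher, led by the zinc-finger genes Klf2 (1.28) and Klf6 (1.24), and 11 lower, led by Dusp2 (-2.21), Id1 (-2.18) and Ctgf (-2.13), with a median of -0.22 against -0.39 for all tested genes. There 9.57% of all tested genes were called higher and 52.8% lower.

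Of 19 genes of the ERK pathway and serum response factor, which carry signals to the immediate early genes, 8 were called lower and 2 higher in WT mTEChi than in WT mTEClo, with a median of -0.20. The background was 31.1% lower and 41.6% higher, and without WT mTEChi replicate 1 or 2 or WT mTEClo replicate 3, 1 was higher. The lower ones were led by the kinase gene Mapk14 (-1.31), the coactivator gene Mkl2 (-0.73) and Srf itself (-0.69). Against WT cTEC, 12 were lower and 3 higher, against 31.8% and 46.6% of all tested genes. In KO against WT cTEC, Rps6ka5, which encodes a kinase downstream of ERK and p38, was called higher and the coactivator gene Mkl1 lower. The call of Rps6ka5 was lost without KO cTEC replicate 1 (0.46, limma adjusted p = 0.12), without KO cTEC replicate 2 or WT cTEC replicate 1 or 2, and after either rescaling, and that of Mkl1 without KO cTEC replicate 2 or WT cTEC replicate 1 or 3. The list had 0 called higher and 2 lower without KO cTEC replicate 1. In mTEClo 2 were higher and 3 lower, against 7.93% and 8.04% of all tested genes. The lower count there was 0 to 1 without any one library other than WT mTEClo replicate 2, and 9 when centred. In mTEChi 1 was higher and 9 lower, against 9.57% and 52.8% of all tested genes, and this became 8 higher and 5 lower after quantile normalization and 4 and 5 when centred.

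Of 13 heat shock genes, which respond to protein stress, 5 were called lower and 6 higher in WT mTEChi than in WT mTEClo, against 31.1% and 41.6% of all tested genes. The inducible genes Hspa1a (-1.67), Hspa1b (-1.47) and Dnajb1 (-0.84) led the lower ones, and Hspa5 (0.86), the chaperone of the endoplasmic reticulum, led the higher ones. Hspa1a and Hspa1b are near-identical copies, so reads could be split between them. In mTEClo, Dnajb1 (0.79, limma adjusted p = 0.00041) and Hsp90aa1 (0.66, adjusted p = 0.002) were called higher in KO than in WT, with no heat shock gene called lower (0 at an unadjusted p under 0.05 in limma). The background was 7.93% higher and 8.04% lower, and when centred 3 heat shock genes were called lower. Such calls were not particular to mTEClo. Dnajb1, Hsp90aa1 and Dnaja1 were called higher in KO cTEC, and Hspa5 in KO mTEChi, where 13.3% and 9.57% of all tested genes were. The 3 calls in cTEC were lost when centred, and that of Hspa5 after quantile normalization. Without KO cTEC replicate 1 Hsp90aa1 was also not called (0.35, limma adjusted p = 0.11).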

How the data were processed

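RNA sequencing was analysed from 18 libraries in 6 groups of 3. The authors deposited 1 table per library, with positions, symbol, RPKM and a signal column that sums the aligned bases on each gene (coverage), per the file headers and values. CASAVA 1.8.2 and the mm10 genome come from the submitters' processing notes; the aligner, its settings and the annotation are not given in the sources used. The depth in reads is unknown.

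From the RPKM, limma 3.58.1 (R 4.3.3) was fitted to log2(RPKM + 0.1) with 6 group means and a mean-variance trend, on the 19451 genes that reached 0.1 RPKM in 3 or more libraries. Benjamini-Hochberg adjustment ran over all tested genes in each of 12 comparisons, and a gene was called at an adjusted p under 0.05. A fold change on this scale understates changes of low genes. The procedure was tested on simulated data. Alternatives were pseudocounts of 0.01 and 1, no filter, a filter of 1 RPKM, quantile normalization, centring on housekeeping genes, a replicate block and leaving out each library. The counts of the other gene lists under these settings were added after seeing the data.

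The members and gene lists were chosen with earlier results of these data known. All 10 members were named in each comparison. From the other lists, counts were given and up to 3 called genes a direction named, those with the largest change and at least 1 RPKM. The deviations of libraries of the same number had every correlation over 0.1 (0.11, 0.17 and 0.15) only between WT mTEClo and WT cTEC. There the block changed no call among the 10 genes. The 27 correlations ran from -0.30 to 0.21.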

Additional observations from a re-analysis of the deposited data

Results flagged for a closer look

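The effect of genotype differed between populations, by the test of the difference itself, for 3 of the immediate early genes, which is 2 of the 10 in each of the comparisons named here and a smaller share than among all genes. For Nr4a1 the genotype effect in mTEChi minus that in mTEClo was -1.48 (log2, limma adjusted p = 0.00097): KO exceeded WT in mTEClo and fell below it in mTEChi, without overlap of libraries in either. For Ier2 the same difference was -0.65 (adjusted p = 0.017), with every KO library above WT in mTEClo and below it in mTEChi, and the call was lost when centred on housekeeping genes (adjusted p = 0.23). For the effect in mTEChi minus that in cTEC, Egr2 stood at -0.96 (adjusted p = 0.0029) and Nr4a1 at -0.92 (adjusted p = 0.021), and neither was called after quantile normalization (adjusted p = 0.11 and 0.12). That normalization called Fos lower in both comparisons (-1.46 against mTEClo and -0.83 against cTEC) and Ier2 lower against cTEC too (-0.46). The medians of all tested genes in these comparisons were -0.39 and -0.44, and 40.9% and 44.8% of all tested genes were called lower.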

How the results depend on the processing

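Of 840 values of the 10 genes under settings other than the one reported, 16 lost a call, 15 gained one and 20 changed sign while called under neither setting; with 1 library left out, of 900 values 23 lost a call, 8 gained one and 37 changed sign in that way. No called value of these genes changed sign. For KO against WT in cTEC, 0 of the 10 genes were called higher with no filter, after quantile normalization or centred on housekeeping genes, and 0 to 1 with 1 library left out; called lower were 0 to 2. In mTEClo 4 were called higher after quantile normalization and 4 with the replicate block (Fosb, Atf3, Nr4a1 and Dusp1), and 0 to 1 with 1 library left out. In mTEChi, centring called 1 higher and 0 lower, and leaving out 1 library 0 to 2 lower. Quantile normalization called Fos and Ier2 lower there in place of Nr4a1 and Egr2. Between WT mTEClo and WT cTEC, 1 was called higher with no filter, after quantile normalization or when centred, and 1 to 2 with 1 library left out. With the replicate block 1 gene (Nr4a1, -0.37, adjusted p = 0.044) was called lower in KO mTEClo than in KO cTEC. These 4 gained calls (Fosb, Atf3 and Dusp1 in KO against WT mTEClo, Nr4a1 here) were the only ones among the 10 genes that the block changed; Egr3 lost its call in KO against WT mTEClo (adjusted p = 0.067). Centred, the differences between genotype effects had 1 gene called lower in each of mTEChi against mTEClo and mTEChi against cTEC; with 1 library left out the latter had 0 to 1 higher and 1 to 3 lower.

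Rescaling moved the background. In KO against WT mTEChi, 1862 genes were called higher and 10269 lower (15.3% of calls higher), 6064 and 4808 after quantile normalization (55.8%), and 2927 and 7985 when centred (26.8%). In cTEC 1315 were called lower, 2159 after quantile normalization and 2980 when centred. In mTEClo centring gave 997 higher and 4374 lower, against 1542 and 1563. Between KO mTEClo and KO cTEC it gave 2446 and 5810, against 3756 and 3397. The differences between genotype effects, with 1169 higher and 7950 lower for mTEChi against mTEClo, became 4559 and 3550 after quantile normalization and 3172 and 5186 when centred. For mTEChi against cTEC, 997 and 8714 became 5343 and 3951, and 2616 higher when centred. For mTEClo against cTEC, 673 lower became 407 after quantile normalization. For KO against WT mTEChi, quantile normalization gave 0.13 for Fosl1 and -0.11 for Hspa5, called lower and higher as reported. For mTEChi against mTEClo it gave -0.021 for Hspa5, and centring 0.031 for Mapk3, with the calls lost and the signs changed. The cause was not tested.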
